A study of Rattus norvegicus with 6 samples.

Results

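The adrenergic and adenylyl cyclase genes described here are 8 genes chosen by name: the receptors Adrb1, Adra1a, Adra1b and Adra1d, the G protein gene Gnas, the adenylyl cyclases Adcy5 and Adcy6, and Prkaca, the alpha catalytic subunit of protein kinase A. They matched 9 of the 34257 rows of the deposited table, because Gnas has 2 rows, and all 9 passed the filter on low values. The rule names genes and uses no measured value, but the members were chosen with earlier results of these data known. Neonatal rat ventricular cardiomyocytes, primary heart muscle cells taken from newborn rats, were treated with perhexiline at 1 µM for 24 h or with vehicle, and poly(A) RNA was sequenced in 3 libraries per group. Perhexiline, used against angina, blocks the carnitine palmitoyltransferases that carry fatty acids into mitochondria. The labels name no genetic change in either group, and rat strain, age in days and the vehicle were not found in them. Separate cultures or litters are not named either, so each p-value covers the spread among these 6 libraries only, and that spread may be technical.

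Noradrenaline and adrenaline act on the heart through adrenergic receptors. The beta-1 receptor couples to the stimulatory G protein Gs, whose alpha subunit is made from Gnas; Gs activates adenylyl cyclase, cyclic AMP rises, and protein kinase A phosphorylates calcium channels, phospholamban and myofilament proteins so that each beat is stronger and relaxes faster. The alpha-1 receptors couple to Gq and phospholipase C instead, and are classical triggers of hypertrophic growth in cultured neonatal cardiomyocytes.

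Levels are FPKM, fragments scaled by gene length and by library size, as the authors deposited them. Fragment totals recovered from these values ran from 13616252 to 15241994 in the vehicle libraries and from 14863929 to 16702523 in the perhexiline libraries. Differences are perhexiline minus vehicle on the log2(FPKM + 1) scale with the SE of the limma fit. This scale makes changes of low genes look smaller than they are. A gene is said to have risen or fallen only at a limma adjusted p under 0.05 over all 13460 genes tested. Of these, 896 passed (6.66%), 478 higher (3.55%) and 418 lower (3.11%); higher genes were 53.3% of the passing ones, a share that was 70.7% when libraries were scaled to total fragments and 42.4% when scaled to their upper quartile. Leaving out vehicle replicate 1 left 117 genes, leaving out vehicle replicate 2 left 142, and leaving out perhexiline replicate 2 or 3 left 125 or 87.

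Of the 8 genes 3 fell with perhexiline: the Gq-coupled receptor gene Adra1d and, on the cyclic AMP branch, the cyclase gene Adcy6 and the kinase subunit gene Prkaca. As ratios of mean FPKM they were lower by 1.48-fold, 1.19-fold and 1.26-fold. The beta-1 receptor Adrb1, Adra1a, Adra1b, the cyclase Adcy5 and both Gnas rows did not pass. None of the 9 rows rose, and at an unadjusted p under 0.05 there were 4 lower and 0 higher rows; limma-voom on recovered fragments also gave 3 lower and 0 higher. Over all tested genes 12.3% were lower and 13.4% higher at an unadjusted p under 0.05, and limma-voom called 5.98% lower and 5.62% higher. All 9 differences lay below 0, with a median of -0.24, while the median over all tested genes was 0.01. In 4 of the 9 rows every perhexiline library was below every vehicle library. Among all tested genes 31.9% had groups that did not overlap, and 14.9% had them with perhexiline lower. Each of the 3 calls was lost when vehicle replicate 1 or 2 was left out, and when perhexiline replicate 2 or 3 was, with limma adjusted p of up to 0.101 for Adra1d, 0.118 for Prkaca and 0.147 for Adcy6.

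**Figure D1:**
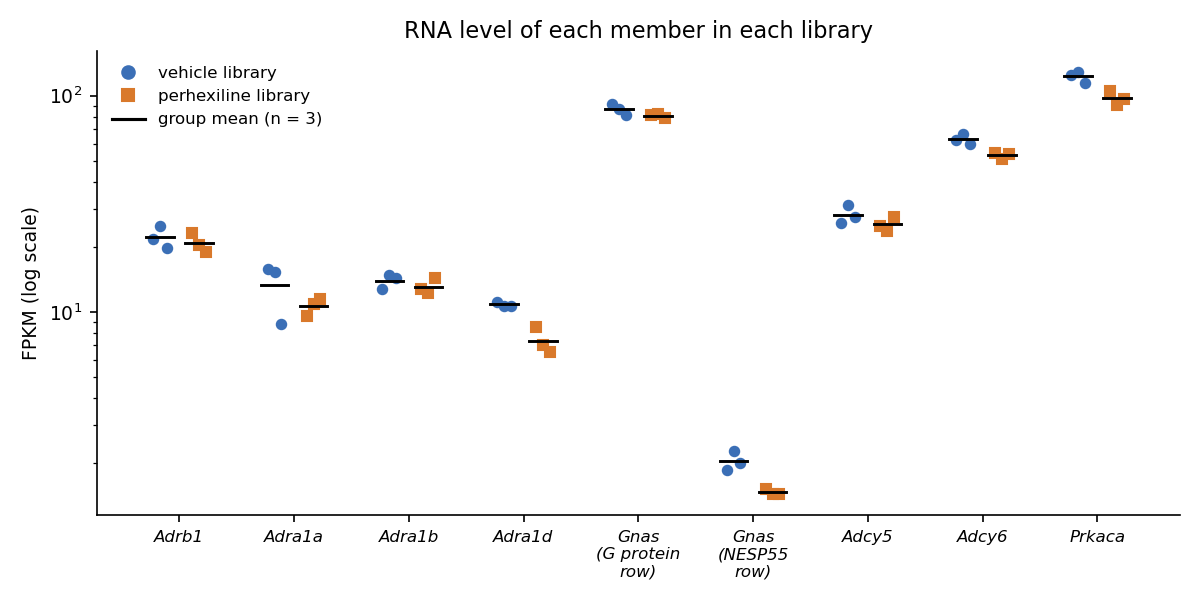
RNA level in FPKM (log axis) of each member in the 3 vehicle libraries (circles) and the 3 perhexiline libraries (squares), with black bars for group means. Prkaca is the most abundant member in both groups, and the squares lie below the circles without overlap for Adra1d, Adcy6, Prkaca and the NESP55 row of Gnas.

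The promoters of 2 of the genes that fell, and of the beta-1 receptor gene for comparison, are printed to show what sequence surrounds their starts. They come from RefSeq (build GRCr8), run 5′ to 3′ from 250 bases before to 50 bases after the annotated start, and are named with their position: Adra1d at chr3:139262282-139262581 on the minus strand, Prkaca at chr19:41083140-41083439 on the minus strand and Adrb1 at chr1:265776853-265777152 on the plus strand. Capitals mark TGACG, the short form of the cyclic AMP response element, and the GC box, GGGCGG, on either strand (CGTCA and CCGCCC on the other).
Adra1d: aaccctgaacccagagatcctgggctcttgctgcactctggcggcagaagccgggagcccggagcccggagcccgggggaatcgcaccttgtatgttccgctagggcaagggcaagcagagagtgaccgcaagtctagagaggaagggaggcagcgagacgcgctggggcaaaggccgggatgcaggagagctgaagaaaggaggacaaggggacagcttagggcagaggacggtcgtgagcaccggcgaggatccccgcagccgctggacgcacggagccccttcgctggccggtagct
Prkaca: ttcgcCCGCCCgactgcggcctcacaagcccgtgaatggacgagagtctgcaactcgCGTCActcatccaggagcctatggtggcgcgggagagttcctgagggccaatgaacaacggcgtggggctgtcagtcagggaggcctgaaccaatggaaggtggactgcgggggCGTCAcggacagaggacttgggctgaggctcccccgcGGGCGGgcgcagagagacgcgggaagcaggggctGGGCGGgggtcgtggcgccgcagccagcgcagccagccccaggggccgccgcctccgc
Adrb1: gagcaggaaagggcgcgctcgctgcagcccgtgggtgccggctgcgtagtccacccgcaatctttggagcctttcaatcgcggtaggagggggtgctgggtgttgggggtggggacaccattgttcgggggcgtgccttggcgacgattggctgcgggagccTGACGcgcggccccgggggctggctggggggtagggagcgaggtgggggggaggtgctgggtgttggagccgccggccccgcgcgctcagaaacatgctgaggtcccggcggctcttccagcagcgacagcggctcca

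Prkaca had 2 of the short elements and 3 GC boxes, Adrb1 had 1 short element and 0 GC boxes, and Adra1d had neither. Across all 33469 promoters of that length 21.2% held the short element and 33.1% the GC box. The full element TGACGTCA, which contains the short form on both strands, was in 1.83% of all promoters and in none of the 6 genes' promoters that matched. A match is a description of letters and not a binding site. All 3 sequences were rich in G and C, at 65.7% in Adra1d, 70.3% in Prkaca and 70.7% in Adrb1, against a median of 51.7% over all promoters.

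Among the receptors, Adrb1 was the most abundant. It encodes the beta-1 receptor, through which catecholamines raise heart rate and force (chromosome 1, 277537585 to 277538985 in the deposited table's own coordinates, for which no genome build was found in the labels or headers). It stood at 21.7, 24.8 and 19.7 FPKM in vehicle replicates 1 to 3 and at 23.3, 20.4 and 19.0 in perhexiline replicates 1 to 3. The groups overlapped throughout. Means were 22.1 ± 2.58 and 20.9 ± 2.17 FPKM (SD, n = 3 per group, as in all such pairs below), and the log2 difference was -0.08 ± 0.10 (limma adjusted p = 0.675; 95% interval -0.31 to 0.16). The table's model of Adrb1 spans 1401 bases with a length of 1401, a multiple of 3 with no intron, so its FPKM rests on that stretch alone.

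Of the 3 alpha-1 receptor genes only Adra1d passed, and whether its response differed from that of Adra1a and Adra1b was tested as a share of their sum alone. Adra1d encodes the alpha-1D receptor, known mainly for contraction of vascular smooth muscle (chromosome 3, 124129558 to 124145566). It stood at 11.2, 10.7 and 10.7 FPKM with vehicle and at 8.49, 7.02 and 6.50 with perhexiline. The vehicle libraries lay close together and every perhexiline library was below them. Means were 10.8 ± 0.287 and 7.34 ± 1.03 FPKM, a log2 difference of -0.51 ± 0.10 (limma adjusted p = 0.029), resting on 325 to 480 fragments per library. Markers of smooth muscle cells and pericytes summed to 1280 to 1773 FPKM with vehicle and 1153 to 1384 with perhexiline. The largest parts of that sum were Acta2 and Des, with vehicle means of 697 and 590, while Myh11 averaged 6.71. Of their 8 tested genes limma called 0, with 5 lower and 0 higher at an unadjusted p under 0.05 and 3 lower with limma-voom. At an unadjusted p under 0.05, 12.3% of all tested genes were lower and 13.4% higher, and limma-voom called 5.98% lower. The smooth muscle and pericyte markers did not share a direction. Log2 differences were below 0 for 6 and above 0 for 2, Rgs5 at 0.37 and Pdgfrb at 0.05 (limma adjusted p = 0.250 and 0.709). Kcnj8 did not pass the filter, and its mean was 0.528 in the vehicle group and 1.12 in the perhexiline group, without overlap. The part of smooth muscle cells and pericytes in the Adra1d result was not tested.

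Adra1a encodes the alpha-1A receptor, a hypertrophic receptor of rodent cardiomyocytes (chromosome 15, 43298794 to 43392451). It stood at 15.8, 15.3 and 8.80 FPKM with vehicle and at 9.55, 10.9 and 11.5 with perhexiline. Vehicle replicate 3 was the lowest of all 6 libraries, while the other vehicle libraries were the highest. The log2 difference was -0.26 ± 0.20 (limma adjusted p = 0.452; 95% interval -0.73 to 0.21). Without vehicle replicate 3 it was -0.51 with a limma adjusted p of 0.0331, so this 1 library decided the call. Adra1b, the alpha-1B receptor gene (chromosome 10, 29392762 to 29450644), stood at 12.8, 14.8 and 14.3 FPKM with vehicle and at 12.7, 12.2 and 14.3 with perhexiline. Its groups overlapped, with a log2 difference of -0.09 ± 0.08 (limma adjusted p = 0.548; 95% interval -0.28 to 0.11).

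A shift in the balance of alpha-1 receptor RNAs was not resolved. FPKM is a per-length unit, so these genes can be summed. Within the alpha-1 group Adra1d supplied 28.1%, 26.1% and 31.7% with vehicle and 27.6%, 23.3% and 20.1% with perhexiline (exact permutation test, two-sided, p = 0.2; the smallest p that 3 against 3 libraries allow is 0.1), a share chosen after its values were seen. The groups overlapped.

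Gnas, the gene of the Gs alpha subunit, is an imprinted locus with several starts, and it fills 2 rows of the table. The more abundant row (chromosome 3, 172385672 to 172434613), described there as a G protein alpha subunit, stood at 91.8, 86.6 and 81.0 FPKM with vehicle and at 81.0, 82.2 and 79.0 with perhexiline. Perhexiline replicate 2 was above vehicle replicate 3, so the groups overlapped. The log2 difference was -0.10 ± 0.06 (limma adjusted p = 0.316; 95% interval -0.23 to 0.03). The other row (chromosome 3, 172374957 to 172428483), described as neuroendocrine secretory protein 55 or NESP55, stood at 1.86, 2.28 and 2.01 FPKM with vehicle and at 1.52, 1.44 and 1.44 with perhexiline. Its groups did not overlap, on 37 to 57 fragments per library, and the log2 difference was -0.31 ± 0.11 (limma adjusted p = 0.128, unadjusted p = 0.0233). Both rows lie on the same strand and overlap along the chromosome, so how fragments were divided between them is uncertain.

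Adcy5 and Adcy6 encode the main adenylyl cyclases of the heart, close relatives that calcium inhibits. Adcy6 (chromosome 7, 140270692 to 140291620) stood at 62.6, 66.5 and 59.7 FPKM with vehicle and at 54.1, 51.1 and 53.9 with perhexiline. Every perhexiline library was below every vehicle library. Means were 63.0 ± 3.37 and 53.0 ± 1.64 FPKM, a log2 difference of -0.24 ± 0.05 (limma adjusted p = 0.0437), on 4792 to 6062 fragments per library. Under total-fragment scaling the adjusted p was 0.0645, and without perhexiline replicate 1 it was 0.0678. Adcy5 (chromosome 11, 68695839 to 68842320) stood at 25.9, 31.1 and 27.5 FPKM with vehicle and at 25.0, 23.7 and 27.5 with perhexiline. Its groups overlapped, with a log2 difference of -0.14 ± 0.08 (limma adjusted p = 0.324; 95% interval -0.34 to 0.05). Adcy5 supplied 29.2%, 31.9% and 31.5% of the summed FPKM of the pair with vehicle and 31.6%, 31.6% and 33.8% with perhexiline (exact permutation p = 0.4), so a different response of this pair was not shown.

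Prkaca encodes the alpha catalytic subunit of protein kinase A, the kinase that cyclic AMP releases from its regulatory subunits (chromosome 19, 25095089 to 25118860). It stood at 125, 129 and 115 FPKM with vehicle and at 105, 90.1 and 96.3 with perhexiline. All vehicle libraries were above all perhexiline libraries. Means were 123 ± 7.13 and 97.2 ± 7.57 FPKM, a log2 difference of -0.34 ± 0.07 (limma adjusted p = 0.0371), on 3141 to 4370 fragments per library. The beta catalytic subunit gene Prkacb stood at 34.2, 36.9 and 35.0 FPKM with vehicle and at 35.0, 39.2 and 41.0 with perhexiline (limma adjusted p = 0.341). Prkaca thus supplied 77.6% ± 0.915 of catalytic subunit FPKM with vehicle and 71.6% ± 2.97 with perhexiline, with no overlap between the groups (exact permutation p = 0.1, the smallest possible). Prkacb and this share were chosen after their values were seen.

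**Figure D2:**
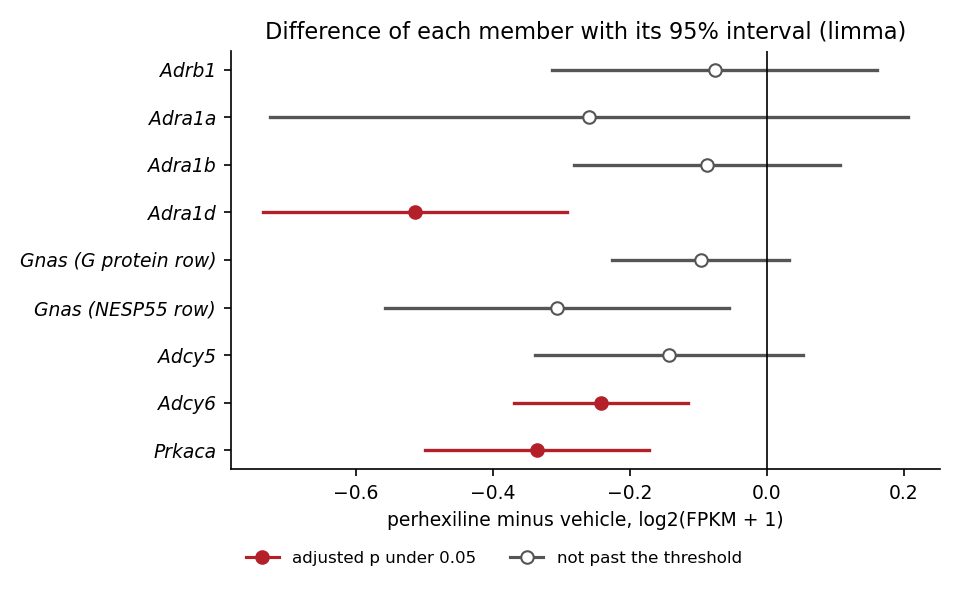
Perhexiline minus vehicle on the log2(FPKM + 1) scale for each member (points) with the 95% interval of the limma fit (lines); filled red points passed an adjusted p of 0.05. All 9 points lie left of 0, and Adra1d at -0.51, Prkaca at -0.34 and Adcy6 at -0.24 are the rows that passed.

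The order of levels was the same in both groups: Prkaca, then the G protein row of Gnas, Adcy6, Adcy5, Adrb1, Adra1b, Adra1a, Adra1d and the NESP55 row. With vehicle, the ranges of Adra1b and Adra1a overlapped, as did those of Adra1a and Adra1d, and every other neighbouring pair was separate. With perhexiline no neighbouring ranges overlapped.

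Heart muscle genes moved in the same libraries. Of 9 tested cardiomyocyte markers, which were present at high levels in every library, 4 fell and none rose (7 lower and 0 higher at an unadjusted p under 0.05, 6 lower and 0 higher with limma-voom), and their summed level was 18511 to 23653 FPKM with vehicle and 16661 to 19527 with perhexiline. Of all tested genes limma called 3.11% lower and limma-voom 5.98%, and 12.3% were lower at an unadjusted p under 0.05. The cardiomyocyte markers did not move alike: Nppa differed by 0.23 and Myh7 by -0.02 on the log2 scale (limma adjusted p = 0.469 and 0.944). In bulk RNA, fewer cells of a type and less RNA per cell cannot be told apart. Set against the mean log2 FPKM of these 9 markers, which was itself lower by 0.28 with perhexiline (a difference of -0.28), the members no longer shared a direction. Adcy6 and Prkaca then differed by 0.03 and -0.06 with overlapping groups, and Adra1a by 0.00. Adra1d remained lower in all 3 perhexiline libraries, at -0.29, while Adrb1 was higher in all 3, at 0.20. For Adrb1 the groups nearly touched, with vehicle replicate 2 at -5.655 and perhexiline replicate 3 at -5.650. The ratios of Adra1b, Adcy5 and both Gnas rows differed by 0.19, 0.13, 0.18 and -0.20, with overlapping groups. The same marker mean was subtracted from every member, which raised each difference by 0.28. The changes of sign follow from that step and are not separate results. These ratios were added after the data were seen and carry no test. The part of cardiomyocyte content in the members' results was not tested.

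**Figure D3:**
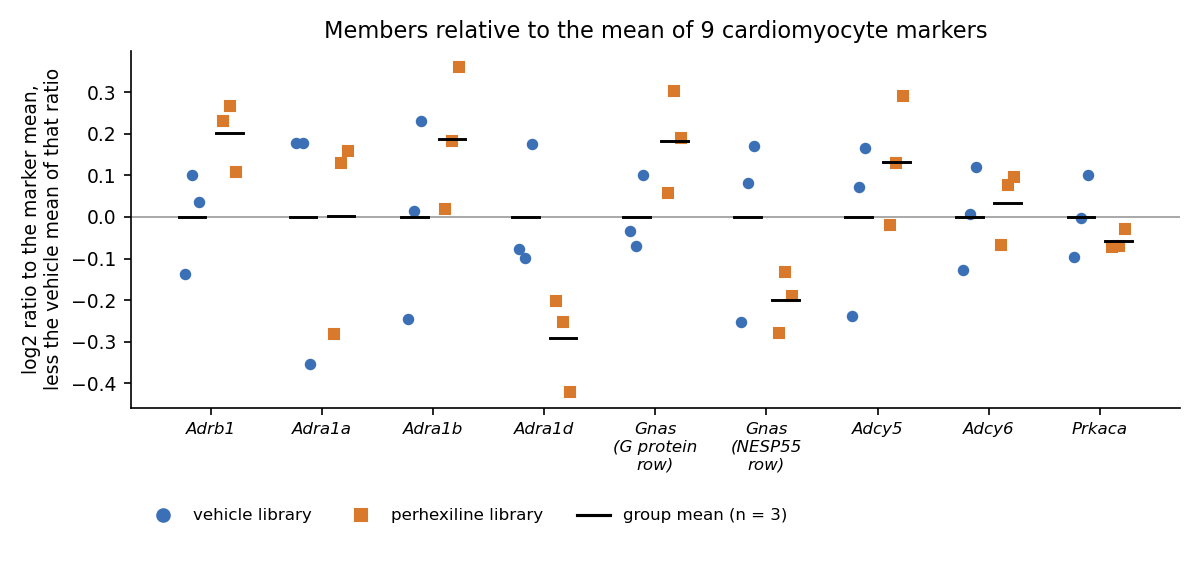
Log2 ratio of each member's FPKM to the mean of 9 cardiomyocyte markers, with the vehicle mean of that ratio set to 0, in each vehicle (circles) and perhexiline (squares) library; black bars are group means. Relative to the markers, Adra1d lies lower with perhexiline (-0.29), Adrb1 lies higher (0.20) with groups that nearly touch, and Adcy6 and Prkaca overlap between groups. The marker mean itself differed by -0.28, and the same mean is subtracted from every member.

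Other cell types were also present. Leukocyte markers summed to 96.3 to 101 FPKM with vehicle and 53.0 to 80.8 with perhexiline, and 2 of 9 tested fell (C1qa and Mrc1) and none rose, with 5 lower and 0 higher at an unadjusted p under 0.05 and 4 lower and 0 higher with limma-voom. Fibroblast markers summed to 1049 to 1088 and 1007 to 1053 FPKM, with 2 of 10 higher and 2 lower. For comparison, limma called 3.55% of all tested genes higher and 3.11% lower. At an unadjusted p under 0.05, 12.3% of all tested genes were lower, and limma-voom called 5.98% lower. Endothelial markers summed to 18.6 to 21.7 and 20.8 to 21.9 FPKM, and neuronal and Schwann cell markers to 19.5 to 22.3 and 18.8 to 20.1, with none passing in limma, at an unadjusted p under 0.05 or with limma-voom. Of the adipocyte markers only Cfd was tested and it did not pass; their sum was 1.45 to 1.72 FPKM with vehicle and 0.936 to 1.49 with perhexiline, and Adipoq was listed at 0 in 5 of 6 libraries. Among the neuronal markers Dbh, an enzyme of noradrenaline synthesis, stood at 5.95 to 7.19 FPKM over the 6 libraries and the neuronal tubulin Tubb3 at 8.30 to 11.0, while Th, the first enzyme of that synthesis, was listed at 0 in 4 libraries and at no more than 0.0654 FPKM in the others. The part of these cells in the members' results was not tested.

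Around the members, 103 of 130 further genes of the pathway were tested, and 2 rose and 5 fell (6.80% of those tested, near the background of 6.66%). Their median log2 difference was 0.03. No rise or fall was called when vehicle replicate 1 or 2 or perhexiline replicate 2 was left out. Leaving out perhexiline replicate 3 gave 0 rises and 1 fall, leaving out perhexiline replicate 1 gave 2 and 3, and leaving out vehicle replicate 3 gave 3 and 8.

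Among the alpha-2 receptor genes none passed in limma or limma-voom. Adra2a, the Gi-coupled alpha-2A receptor, stood at 2.58 ± 0.185 and 3.91 ± 1.06 FPKM (limma adjusted p = 0.126, unadjusted p = 0.0223). Its groups did not overlap, with perhexiline higher. Adra2b and Adra2c were near 0 and were not tested. Of 21 other tested G protein genes 1 fell, Gng3, a gamma subunit, from 7.19 ± 0.983 to 4.47 ± 0.684 FPKM (limma adjusted p = 0.0375). In that list 4 were higher and 2 lower at an unadjusted p under 0.05, and limma-voom called 3 higher and 2 lower. None of the 5 other tested cyclases passed in limma, at an unadjusted p under 0.05 or with limma-voom, with Adcy7 at 5.84 ± 0.315 and 6.64 ± 0.862 FPKM and Adcy4 at 6.52 ± 0.623 and 5.46 ± 0.881.

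Downstream of cyclic AMP, Pkia, which encodes an inhibitor peptide that blocks the catalytic subunit, fell from 141 ± 4.69 to 119 ± 4.42 FPKM (limma adjusted p = 0.0343). It was the only call among 6 other tested kinase subunits and inhibitors, of which 5 had differences below 0, with 4 lower and 0 higher at an unadjusted p under 0.05 and 2 lower and 0 higher with limma-voom. Of 11 tested A-kinase anchoring proteins, which hold the kinase near its substrates, Akap12 alone passed, from 16.6 ± 1.31 to 12.5 ± 1.17 FPKM (limma adjusted p = 0.0425), while 6 were lower and 1 higher at an unadjusted p under 0.05 and limma-voom called 3 lower and 1 higher. Gng3, Pkia and Akap12 each lost their calls in 4 or 5 of the 6 fits without 1 library. Epac proteins are cyclic AMP sensors that switch on Rap GTPases. None of 5 tested genes of this branch, the Epac gene Rapgef3 and 4 Rap genes, passed in limma or limma-voom, with 1 higher and 1 lower at an unadjusted p under 0.05; Rap1b stood at 130 ± 5.22 and 148 ± 7.39 FPKM (limma adjusted p = 0.0813; 0.0332 when scaled to total fragments).

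Receptor desensitisation genes gave 0 calls among 14 in limma and 0 with limma-voom, with 1 higher at an unadjusted p under 0.05. Grk2, the kinase that uncouples beta receptors, stood at 25.5 ± 1.39 and 26.2 ± 1.30 FPKM (limma adjusted p = 0.73; 95% interval of the log2 difference -0.11 to 0.18), and Rgs2, which shortens Gq signals, at 46.6 ± 8.44 and 49.2 ± 6.39 (limma adjusted p = 0.725). Among 9 tested effectors of alpha-1 receptors limma called 0, with 2 lower at an unadjusted p under 0.05 and 2 lower with limma-voom. Plcb4, a phospholipase C, stood at 27.5 ± 3.67 and 20.4 ± 2.47 FPKM (limma adjusted p = 0.0784, and 0.0419 without vehicle replicate 3). Prkcd, a protein kinase C, was at 50.7 ± 2.63 and 49.1 ± 1.93. Another protein kinase C gene, Prkca, was at 11.7 ± 0.477 FPKM with vehicle and 9.40 ± 0.588 with perhexiline, with no overlap. It did not pass (limma adjusted p = 0.0514, and 0.0598 to 0.161 without 1 library).

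All 10 contractile substrates of protein kinase A had log2 differences below 0, with a median of -0.33, and 1 of them fell. It was Tnni3, cardiac troponin I, from 1064 ± 82.7 to 799 ± 77.8 FPKM (limma adjusted p = 0.0373), while 8 were lower at an unadjusted p under 0.05 and limma-voom called 4 lower. CREB transcription factors, which the kinase activates, and their coactivators were tested as 1 list of 7 genes, all with differences above 0 and a median of 0.18; limma called none, 2 were higher at an unadjusted p under 0.05 and limma-voom called 1 higher. The CREB relative Atf1 stood at 29.5 ± 0.741 and 30.9 ± 2.42 FPKM and the coactivator gene Crtc2 at 22.0 ± 1.57 and 22.8 ± 0.761. Creb1 itself was at 11.2 ± 1.99 FPKM with vehicle and 15.1 ± 0.669 with perhexiline, with no overlap. It did not pass (limma adjusted p = 0.0705, and 0.0221 to 0.187 without 1 library). Of 13 tested textbook CREB target genes 2 rose and 1 fell, with a median of 0.43. At an unadjusted p under 0.05, 9 were higher and 1 lower, and limma-voom called 5 higher and 1 lower. The groups did not overlap for 11, among which Ppargc1a had perhexiline lower. Over all tested genes limma called 3.55% higher and 3.11% lower, and limma-voom 5.62% and 5.98%. At an unadjusted p under 0.05 these shares were 13.4% and 12.3%. Groups did not overlap, in either direction, for 31.9% of all tested genes. The nuclear receptor gene Nr4a1 rose from 17.2 ± 0.576 to 24.3 ± 2.87 FPKM (limma adjusted p = 0.0274) and Gem, a small GTPase, from 7.76 ± 1.11 to 12.3 ± 2.11 (0.0445), while Ppargc1a, a coactivator of mitochondrial genes, fell from 30.5 ± 1.11 to 24.7 ± 1.52 (0.0365). Neither Gem nor Ppargc1a kept its call when any single library was left out. Nr4a1 and Tnni3 each kept theirs in only 2 of the 6 fits without 1 library.

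**Figure D4:**
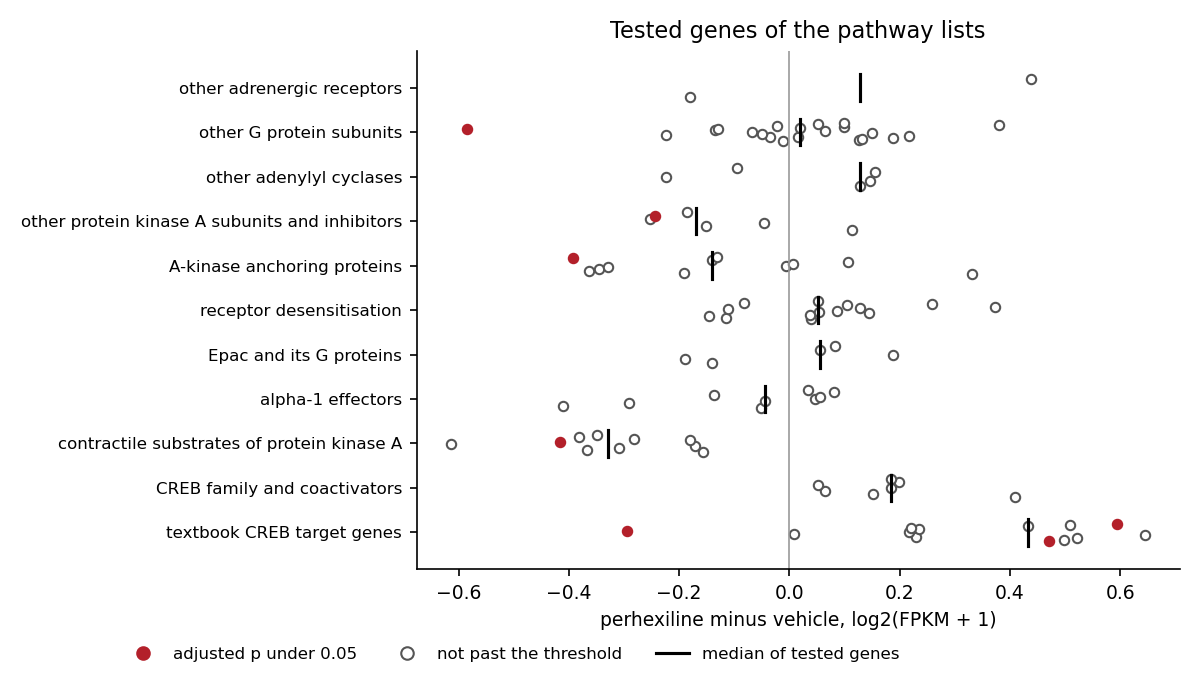
Perhexiline minus vehicle on the log2(FPKM + 1) scale for each tested gene of the 11 pathway lists (points; filled red where the adjusted p was under 0.05), with the list median as a black bar. All points of the contractile substrates lie left of 0 (median -0.33), and 12 of 13 textbook CREB target genes lie right of it (median 0.43).

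The tested genes whose profile over the 6 libraries was nearest to each member that fell were found by the root mean square difference of centred log2(FPKM + 1) values. Nearest to Adra1d were Cav1 (caveolin 1, 0.035 log2 units), an unnamed row and St3gal6 (0.049). Nearest to Prkaca were Ehd4 (0.016), Anxa6 (0.027) and Ivd (0.030), and nearest to Adcy6 were Iqsec1 (0.014), Hnrnpa1 (0.021) and Slc25a11 (0.024). These are descriptions of 6 values each, chosen from 13460 genes.

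**Figure D5:**
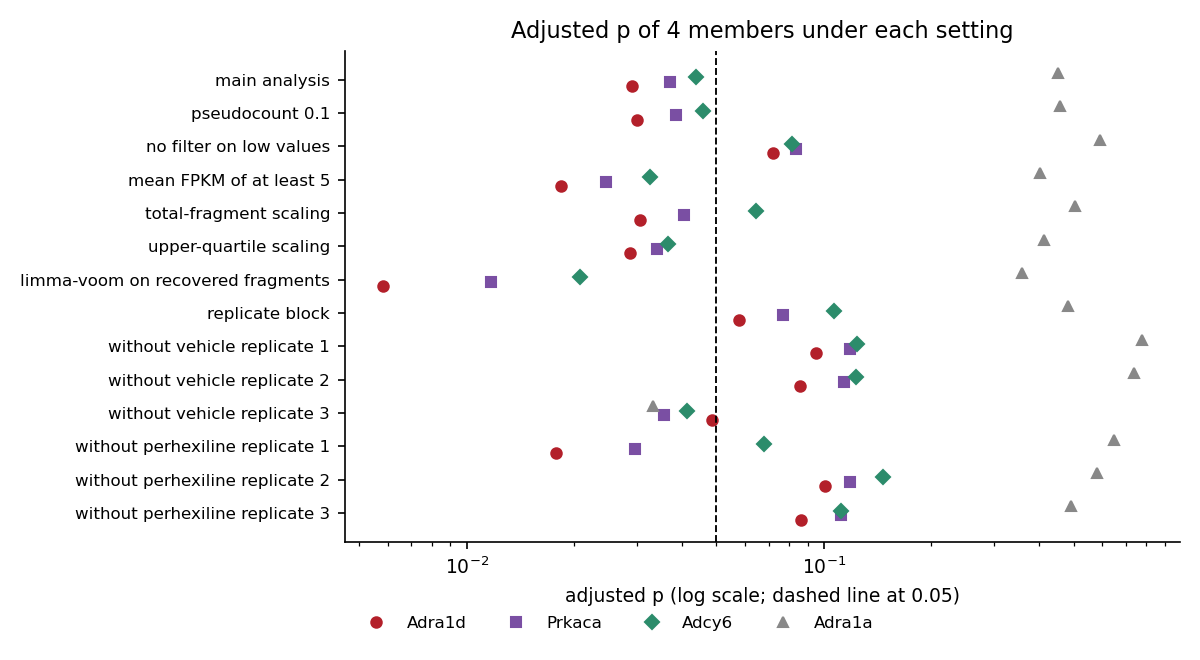
Adjusted p (log axis, threshold 0.05 as a dashed line) of Adra1d, Prkaca, Adcy6 and Adra1a in the main analysis and under 13 other settings. The 3 members that fell cross the line when vehicle replicate 1 or 2 or perhexiline replicate 2 or 3 is left out, and Adra1a crosses it the other way without vehicle replicate 3 (0.0331).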

How the data were processed

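RNA of 6 libraries, 3 per group, was placed in groups by the labels. The authors deposited FPKM per gene and library, per the file headers, with gene length and coordinates. HISAT2 2.0.5 and DESeq2 are named in the submitters' processing notes with no role; the library kit marks strand, per the labels' protocols, but whether counting used it is not stated, nor are build, annotation and counting program. Multiplying FPKM by gene length gave whole steps for 100% of positive values (tolerance 0.01); these were read as fragments and gave the depth. The filter kept genes that reached 1 FPKM in 3 or more libraries. Log2(FPKM + 1) values were then compared by limma 3.58.1 under R 4.3.3 (trended empirical Bayes, two-sided, group only) and Benjamini-Hochberg adjustment over all tested genes; the procedure was tested on simulated data. Shares were compared with exact permutation tests.

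Members and lists were chosen with earlier results of these data known. Named genes were the members, up to 4 called genes per list with the smallest adjusted p (otherwise the 2 most abundant), and the 3 nearest profiles of each called member; 1 of these genes, and a share that used it, are not reported here. Of 131 pathway symbols 130 matched a row. Promoters of 6 of 8 members matched RefSeq. Alternatives were other scalings, filters and pseudocount, limma-voom, a replicate block and leaving out each library. Same-numbered libraries did not deviate together, so no pairing was assumed. Replicates were different libraries (chi-square per degree of freedom 4.7 to 8.14).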

Additional observations from a re-analysis of the deposited data

How the results depend on the processing

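The count of members that fell was 2 under total-fragment scaling and 3 under the other pseudocount, a mean FPKM of at least 5, upper-quartile scaling and limma-voom, and was 0 when low genes were not filtered and 0 under a replicate block (4 and 3 lower rows at an unadjusted p under 0.05); it ran from 0 to 4 over the fits without 1 library. The count over all genes was 162 with no filter, 1562 with limma-voom and 173 with the replicate block, and 87 to 841 without 1 library. Pathway genes that rose numbered 0 with no filter, 5 with a mean FPKM of at least 5, 7 under total-fragment scaling, 1 under upper-quartile scaling, 10 with limma-voom and 0 with the replicate block, and 0 to 3 without 1 library. Those that fell numbered 0 with no filter, 8 with a mean FPKM of at least 5, 8 under upper-quartile scaling, 14 with limma-voom and 0 with the replicate block, and 0 to 8 without 1 library. The cause was not tested. Same-numbered libraries shared only a number, with correlations of deviations of -0.02, -0.10 and -0.04, so the block removes residual degrees of freedom without a design reason; the Adcy5 share differed by 1.47 percentage points with it (exact sign-flip p = 0.5). Without 1 library that share differed by 0.645 to 1.96 percentage points. Among the members and the genes named from the pathway lists, 5 values changed sign, each near 0: Adrb1 at 0.0078 without vehicle replicate 2 (range without 1 library -0.15 to 0.0078), Rgs2 at -0.017 without vehicle replicate 3 and -0.016 without perhexiline replicate 2 (-0.017 to 0.22), Grk2 at -0.0025 without vehicle replicate 3 (-0.0025 to 0.073), and Prkcd at 0.011 under total-fragment scaling. Depth limits the rarest rows: the NESP55 row of Gnas had a counting error of 16.4% of its value at its lowest, against 1.44% for Adcy6.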

Other observations

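Other receptors share these G proteins, and lists of them were added after the members had been seen. Each list gave 1 limma call, against 3.11% lower and 3.55% higher over all tested genes. The lists are small, so 1 call says little about a list. At an unadjusted p under 0.05, 12.3% of all tested genes were lower and 13.4% higher, and limma-voom called 5.98% lower and 5.62% higher. Of 4 tested Gi-coupled receptors outside the adrenergic family 1 fell: Chrm2, the muscarinic M2 receptor through which the vagus nerve slows the heart. It stood at 55.3, 55.4 and 55.9 FPKM with vehicle and at 44.1, 41.1 and 45.1 with perhexiline, with no overlap, a log2 difference of -0.35 ± 0.05 and a limma adjusted p of 0.0167 (up to 0.0619 over the alternatives). In this Gi list 0 were higher and 2 lower at an unadjusted p under 0.05, and limma-voom called 0 higher and 1 lower. Of 11 tested genes of Gs-coupled receptors and their partners 1 fell and none rose in limma (3 were higher at an unadjusted p under 0.05 and limma-voom called 1 higher). It was Ramp1, which pairs with the calcitonin receptor-like receptor, at 5.13, 4.78 and 5.31 FPKM with vehicle and 3.72, 2.52 and 2.98 with perhexiline (limma adjusted p = 0.036, up to 0.111 over the alternatives), on 32 to 60 fragments per library.

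Of 10 tested Gq-coupled receptors 1 rose: Bdkrb2, the bradykinin B2 receptor, at 3.15, 3.25 and 2.46 FPKM with vehicle and 5.87, 7.68 and 6.44 with perhexiline. Every perhexiline library was above every vehicle library, with a log2 difference of 0.95 ± 0.12 (limma adjusted p = 0.0125, up to 0.0543 over the alternatives). Of the endothelin receptor genes, Ednra was at 24.0 ± 2.29 FPKM with vehicle and 18.4 ± 1.95 with perhexiline (limma adjusted p = 0.0608). Ednrb went the other way, at 1.91 ± 0.359 FPKM with vehicle and 3.24 ± 0.702 with perhexiline (limma adjusted p = 0.0813). Neither gene had overlapping groups. In this Gq list 2 were higher and 3 lower at an unadjusted p under 0.05, and limma-voom called 2 higher and 1 lower.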
